A study of Mus musculus with 163 samples.

Results

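Growth of oocytes made from induced pluripotent stem cells (iPSCs) was followed in culture by setting fully grown oocytes (FGOs) against growing oocytes (GROs) of the same origin. The comparison held 47 single mouse oocytes, 23 iPSC-derived GROs and 24 iPSC-derived FGOs, of 163 oocytes in the series, and members were chosen by their source label alone. All 47 oocytes were labelled as derived from BVSC-iPSC, a female line made from adult tail tip fibroblasts. It carries Blimp1-Venus and Stella-ECFP reporter transgenes. The iPSCs were turned into primordial germ cell-like cells and aggregated with gonadal somatic cells of E12.5 female Swiss Webster embryos, from which germ cells had been depleted. In these reconstituted ovaries the cells became GROs (in vitro differentiation). Follicles were then freed and grown with follicle-stimulating hormone, and at first with BMP15 and GDF9, until the oocytes were FGOs (in vitro growth).

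BVSC-iPSC is 1 line, so the oocytes made from it share its reporters and genetic background. A few germ cells of the host gonads can remain in such aggregates. Whether any of the 47 oocytes was of host origin was not tested. Oocytes that grew in mice (24 in vivo GROs and 20 in vivo FGOs) and oocytes from E12.5 gonads (24 gonad-derived GROs and 24 gonad-derived FGOs) were set beside them. The gonads were dissociated and reaggregated whole, with their own germ cells, and their follicles were grown by a similar protocol for a somewhat shorter time than those from iPSCs. A further 24 FGOs came from follicles cultured from mice at 6 days post partum (6 dpp). In vivo FGO 7 stood apart from the other in vivo FGOs, and the study kept 5 in vivo FGOs, it among them, out of its own fits. The main counts that rest on in vivo FGOs are given with and without them. The labels give no strain or age for the animals behind the in vivo oocytes. Nor do they tie any oocyte to an animal, culture or plate. The oocytes of a stage were therefore treated as 1 sample, and no test was made. Ranges over oocytes show the spread between cells, and GRO and FGO cannot be told apart from any difference between the cultures they were taken from.

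A growing mouse oocyte enlarges while arrested in meiotic prophase, transcribing and storing the messages that will serve maturation and the early embryo. It builds the zona pellucida, exchanges metabolites with granulosa cells through gap junctions, and gains DNA methylation at imprinted loci. By the end of growth transcription falls silent, and from then on the pool of messages is set by storage, translation and decay. The libraries were primed with oligo-dT, so a level here is that of polyadenylated transcript.

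Totals ran from 5.64 to 14 M reads (M, 1000000) in iPSC-derived GROs and from 3.99 to 7.78 M in iPSC-derived FGOs, with medians of 6.99 and 7.06 M. Levels are counts per 1000000 reads (CPM), and a pooled level divides the summed reads of a group by its summed library. Growth is given as a ratio on the log2 scale, FGOs over GROs, of the pooled levels after adding 0.5 CPM to each, which understates the change of low genes. A gene is said to have risen or fallen only where this ratio reached 2 or -2, that is 4-fold.

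All 12 oocyte markers on the list were found in both groups. Gdf9, a growth factor that oocytes send to granulosa cells, was at 9082, 11164 and 14247 CPM in the lowest, median and highest GRO and at 2913, 4988 and 8088 CPM in FGOs. Some granulosa genes were near 0, but not all. Over all oocytes of a group, Amh had 18 reads in GROs and 1 in FGOs, Amhr2 had 12 and 0, and Wt1 had 53 and 10. The 12 granulosa markers in the table summed to 20.3 to 104 CPM in GROs and 52.7 to 117 CPM in FGOs. Cyp19a1, the enzyme that makes estrogen, was the largest part of the difference, at 20.1 pooled CPM in GROs and 61.9 in FGOs. Of the 8 granulosa markers compared, 3 were at least 2-fold higher in FGOs and 0 were at least 2-fold lower. The shares of all genes were 6.69% and 15.3%. The median ratio of these markers was 0.48. The part of these few markers in the results below was not tested.

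Of 21950 genes in the table, 13115 had CPM above 1 in at least 3 of the 47 oocytes. In growth of iPSC-derived oocytes more genes fell than rose: 474 fell (3.61% of those compared) and 148 rose (1.13%), or 3.20 fallers for each riser. CPM is a share of a library, so these are changes in relative level, and the amount of a transcript per oocyte was not measured here. Most genes moved little, with 78.0% within 2-fold and a median ratio of -0.11. At the smaller cutoff of 2-fold, 2012 genes were lower (15.3%) and 877 were higher (6.69%) in FGOs.

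**Figure D1:**
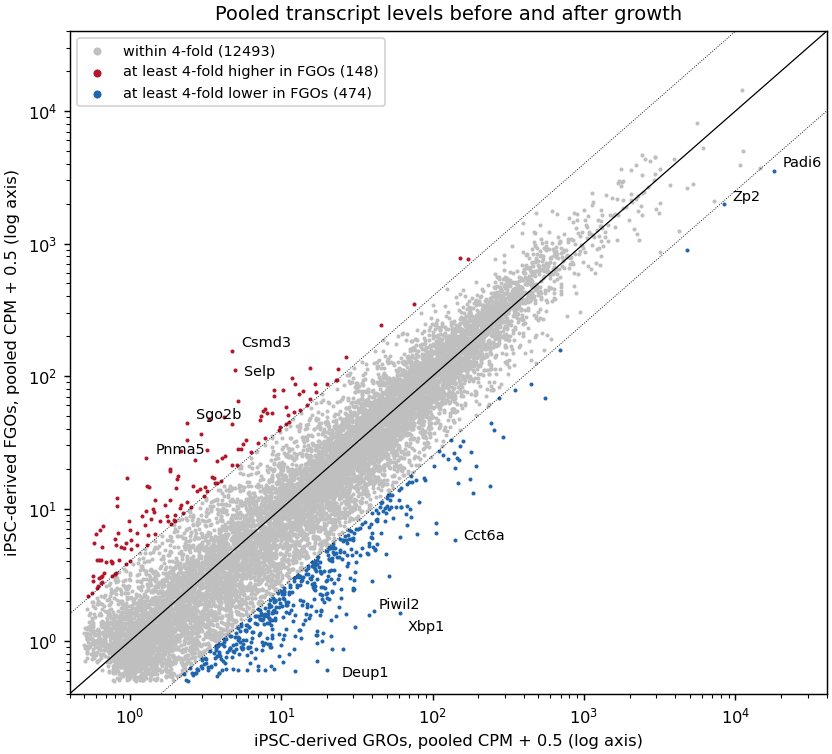
Pooled level of each of 13115 genes in iPSC-derived GROs (x axis) and iPSC-derived FGOs (y axis), as pooled CPM + 0.5 on log axes. The solid line marks equal levels and the dotted lines 4-fold. The 474 genes that fell are blue and the 148 that rose are red. Fallers include very abundant transcripts such as Padi6 and Zp2, but the middle of both sets is alike in level. The median was 14.3 CPM in GROs for fallers and 13.9 CPM in FGOs for risers.

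In plain CPM, the fallers left the range of their starting levels more cleanly than the risers. In 737 genes every FGO lay below every GRO (5.62%), and in 313 genes every FGO lay above every GRO (2.39%). With TMM scaling these counts were 594 and 467, and with median-of-ratios scaling 594 and 440, so their contrast depends on the scaling. In plain CPM again, 328 of the 474 fallers (69.2%) did not overlap between the 24 FGOs and 23 GROs, against 54 of the 148 risers (36.5%). Fallers started at a median pooled level of 14.3 CPM and ended at 1.57 CPM. Risers started at 1.65 CPM and ended at 13.9 CPM. The counts of 148 and 474 depend on the value added before the logarithm and ran from 59 to 295 and from 204 to 781 with 2 and 0.1 CPM in place of 0.5. With model coefficients from edgeR in place of pooled ratios they were 401 and 827.

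Promoters of the most changed genes are shown because risers and fallers differed in the CpG content of these windows, which the choice of genes did not use. Each window runs from 250 bases before to 50 bases after a RefSeq gene start on GRCm38.p6, read 5′ to 3′ on the gene's strand, with every CpG dinucleotide in capitals. They belong to the first 2 named risers and first 2 named fallers that have an entry in the promoter table. Selp, which encodes the adhesion receptor P-selectin, has chr1:164115014-164115313 on the plus strand. Pnma5, of the paraneoplastic Ma antigen family, has chrX:73037054-73037353 on the minus strand. This window is at a start inside the listed span of the gene (73033981 to 73039721). Xbp1, a transcription factor of the unfolded protein response, has chr11:5520391-5520690 on the plus strand. Deup1, a component of the deuterosomes that make centrioles in multiciliated cells, has chr9:15627797-15628096 on the minus strand, the first of its 2 entries. The Deup1 window too lies inside the listed span (15559864 to 15628351).
Selp: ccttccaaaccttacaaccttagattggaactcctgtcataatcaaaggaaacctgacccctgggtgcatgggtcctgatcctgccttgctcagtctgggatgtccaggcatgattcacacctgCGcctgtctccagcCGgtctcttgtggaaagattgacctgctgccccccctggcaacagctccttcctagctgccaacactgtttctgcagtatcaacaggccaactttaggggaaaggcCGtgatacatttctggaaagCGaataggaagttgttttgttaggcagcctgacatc
Pnma5: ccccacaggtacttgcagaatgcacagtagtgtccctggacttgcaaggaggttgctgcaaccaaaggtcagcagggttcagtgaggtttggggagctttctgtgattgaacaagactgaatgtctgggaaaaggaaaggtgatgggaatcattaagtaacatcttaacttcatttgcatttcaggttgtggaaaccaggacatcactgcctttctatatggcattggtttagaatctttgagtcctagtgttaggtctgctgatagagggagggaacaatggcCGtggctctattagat
Xbp1: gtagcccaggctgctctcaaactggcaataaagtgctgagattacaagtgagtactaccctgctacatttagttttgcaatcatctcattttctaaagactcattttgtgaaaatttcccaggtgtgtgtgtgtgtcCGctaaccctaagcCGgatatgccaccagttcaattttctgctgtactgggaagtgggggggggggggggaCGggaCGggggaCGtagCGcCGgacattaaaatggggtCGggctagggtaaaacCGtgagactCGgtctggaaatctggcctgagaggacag
Deup1: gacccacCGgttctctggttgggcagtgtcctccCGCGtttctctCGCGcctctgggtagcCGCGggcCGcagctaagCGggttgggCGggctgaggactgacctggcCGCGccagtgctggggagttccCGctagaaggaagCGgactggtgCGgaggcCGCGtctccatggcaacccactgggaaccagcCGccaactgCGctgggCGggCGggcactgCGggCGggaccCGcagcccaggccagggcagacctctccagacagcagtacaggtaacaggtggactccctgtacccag

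The window holds 4 CpGs in Selp and 1 in Pnma5, against 10 in Xbp1 and 24 in Deup1. Across genes, the ratio of observed to expected CpG was above 0.6 in 36 of 113 risers with an entry (31.9%), in 265 of 375 fallers (70.7%) and in 64.9% of the 10355 genes compared that have an entry. Risers are mostly of low level, so a set of equal level was looked at too. Of the 3122 genes with an entry that did not pass 4-fold and had a mean CPM between 3.15 and 25.8, the quartiles of the risers, 67.5% were above 0.6. Single windows need not follow their set: GC content was 51.7% in Selp, 45.7% in Pnma5, 51.0% in Xbp1 and 69.3% in Deup1, and the CpG ratio of the faller Xbp1, 0.535, lay below 0.6. Median GC content was 61.0% in fallers and 59.7% in all genes compared, and was lower in risers.

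Short letter matches on either strand also differed in share. TATAAA, the core of the TATA box, was in 17.7% of riser windows, 7.47% of faller windows and 8.09% of all genes compared. TAATTG, a homeodomain recognition sequence, was in 15.9%, 4.8% and 5.41%. CANNTG, the E-box core, was in 73.5%, 65.6% and 66.1%. No string is contained in another, a match is a description and not a binding site, and none of the 4 windows printed holds TATAAA or TAATTG. In all 27025 genes of the promoter table the shares were 14.2%, 8.15% and 72.1%. In the set of equal level used above they were 6.92%, 5.25% and 65.8%. TATAAA and most of TAATTG are A and T, and riser windows hold less GC. The part of base content in these shares was not tested. The X chromosome held 10 of the risers (6.76%) and 31 of the fallers (6.54%), against 3.61% of all genes compared. Exonic length hardly differed, with medians of 2692 bases in risers, 3008 in fallers and 2797 in all genes.

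Csmd3 and Selp were among the named risers. Csmd3, a very large transmembrane protein studied in the brain, was at 0.365, 2.43 and 32.5 CPM in the lowest, median and highest GRO and at 74.5, 134 and 464 CPM in FGOs. The lowest FGO therefore stood above the highest GRO. Its pooled level went from 4.26 CPM (95% counting interval 3.95 to 4.59) to 155 CPM (153 to 157), a ratio of 5.03. Selp, an adhesion receptor of platelets and endothelium, was at 0.429, 3.86 and 14.8 CPM in GROs and at 66.0, 114 and 159 CPM in FGOs, with a ratio of 4.47. Its groups did not overlap either, and the lowest GRO was GRO 4. Gm16548, with a ratio of 3.66, overlaps the 3′ end of Selp on chromosome 1 (164148576 to 164152217 against 164115264 to 164150026). Reads of these 2 genes cannot be told apart where they overlap.

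Pnma5 was at 0, 0.266 and 7.55 CPM in GROs and at 7.45, 22.8 and 42.2 CPM in FGOs, a ratio of 4.23 with only the extreme cells touching. Sgo2b, a copy of the shugoshin that guards centromeric cohesion, was at 0, 1.29 and 5.74 CPM in GROs and at 24.8, 44.9 and 68.4 CPM in FGOs. Its ratio of 4.21 is uncertain because reads that match the related Sgo2a equally well were not counted. Csrnp3, a nuclear protein of the cysteine-serine-rich family, was at 0, 0.422 and 1.36 CPM in GROs and at 8.54, 16.2 and 25.9 CPM in FGOs. All 24 FGOs exceeded all 23 GROs, and the ratio was 4.15.

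Further named risers were Prr32 (ratio 3.90), Cntn6, a neural adhesion protein (3.84), Rrh, a retinal opsin (3.79), Olfr288, an olfactory receptor (3.66), Ak5, a brain adenylate kinase (3.65), and Il23a, a cytokine subunit (3.65). Olfr288 belongs to a large family and shares the uncertainty of near-identical copies. Cntn6 varied widely among FGOs, from 3.18 CPM in FGO 16 through a median of 50.3 to 111 CPM in FGO 13. Of the 12 named risers, GRO 6 was the highest GRO in 5 and GRO 19 in 5.

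Genes that fell furthest included members of protein folding, transfer RNA export, the piRNA pathway and germ cell transcription. Xbp1 was at 26.8, 58.6 and 107 CPM in the lowest, median and highest GRO and at 0, 0.987 and 4.52 CPM in FGOs. Every FGO lay far below every GRO, and the pooled level went from 60.4 CPM (59.3 to 61.6) to 1.14 CPM (0.987 to 1.32), a ratio of -5.21. Deup1 was at 6.37, 20.0 and 37.3 CPM in GROs and at 0, 0 and 0.678 CPM in FGOs. It had 3209 reads over 23 GROs and 18 reads over 24 FGOs, a ratio of -5.04. Xpot, the exportin for transfer RNA, was at 14.3, 23.4 and 44.6 CPM in GROs and at 0, 0.346 and 1.61 CPM in FGOs, with a ratio of -4.86.

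Cct6a, a subunit of the CCT chaperonin that folds actin and tubulin, was the most abundant of the named fallers. It was at 98.0, 140 and 196 CPM in GROs and at 1.30, 3.49 and 22.4 CPM in FGOs, so the groups were far apart, and its ratio was -4.58. Selenos, a membrane protein of endoplasmic reticulum quality control, was at 17.1, 29.8 and 49.8 CPM in GROs and at 0, 0.680 and 3.28 CPM in FGOs, also with -4.58. Slc39a1, a zinc importer, had a ratio of -4.59 and Syncrip, an RNA-binding protein, -4.29. The other named fallers were Tsga8 (-4.61), a testis-specific gene, Haghl (-4.60), Piwil2 (-4.60), Ifi47 (-4.37), an interferon-induced GTPase, and Sohlh1 (-4.22). In 10 of these 12 genes the groups did not overlap, the exceptions being Ifi47 and Sohlh1. Every FGO lay below every GRO in 5.62% of all genes and in 69.2% of the fallers. The 12 were chosen for the largest ratios, which favors such a separation.

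**Figure D2:**
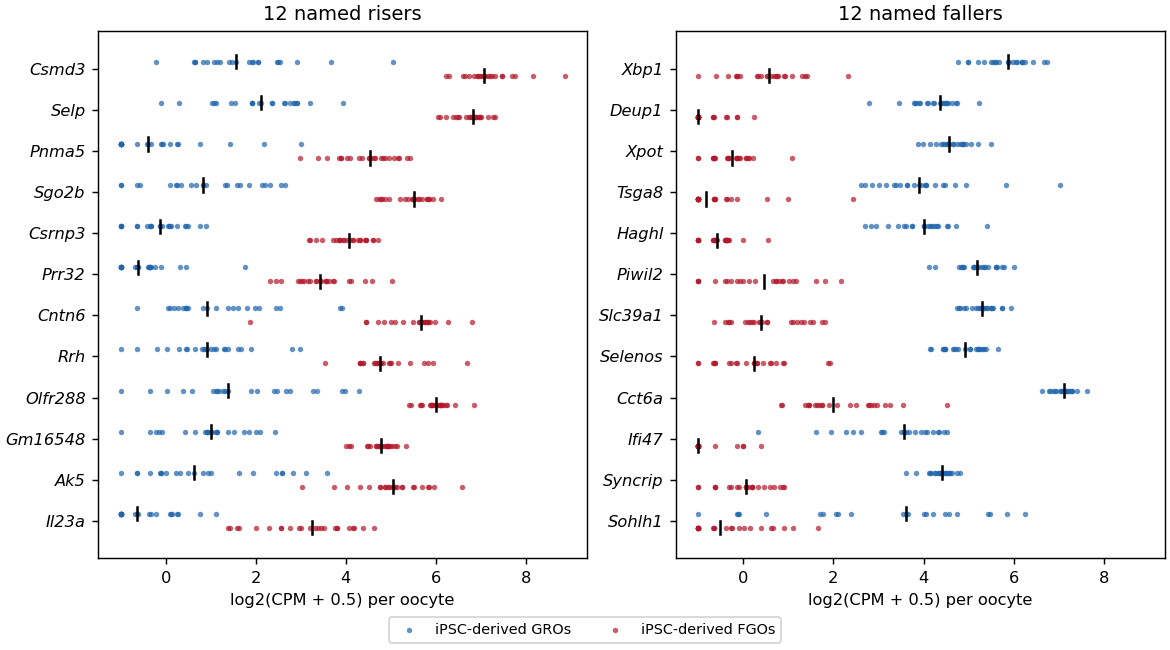
log2(CPM + 0.5) in each of 23 iPSC-derived GROs (blue) and 24 iPSC-derived FGOs (red) for the 12 named risers (left) and 12 named fallers (right), with group medians as black bars. GROs spread widely in several risers and in Sohlh1, while FGOs of most fallers sit near 0 reads.

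Since Xbp1, Selenos and Cct6a were among the 12 named fallers, their partners were looked up in 2 lists written after these values were seen. Of 26 genes of the unfolded protein response, 3 fell (11.5%, against 3.61% of all genes), none rose and 15 stayed within 2-fold, with a median ratio of -0.34. Xbp1 and Selenos prompted this list, and Cct6a the other, so the counts partly restate that choice. Beside Xbp1 and Selenos the third was Herpud1, a membrane protein of ER-associated degradation (-3.70). Hspa5, the main chaperone of the ER, went from a median of 426 CPM in GROs to 118 CPM in FGOs with ranges that touched (ratio -1.76). Ern1, the kinase and nuclease that splices Xbp1 RNA, was higher in every FGO than in every GRO (1.04). Of 6 CCT subunits in the table, Cct6a and Cct4 (-2.01) fell, while Cct3 (-0.11) and Cct8 (-0.38) were within 2-fold. Subunits of this complex thus had very unequal ratios. The ratio of Cct4 was -1.98 at its highest with 1 oocyte left out, at the edge of the size rule.

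Several transcripts that define the oocyte were among the fallers. Of the 12 oocyte markers, 3 fell, against 3.61% of all genes, none rose and 5 stayed within 2-fold, and the median ratio was -1.32 against -0.11 for all genes. Ddx4, the RNA helicase of the germ line, was at 371, 556 and 656 CPM in the lowest, median and highest GRO and at 43.2, 64.2 and 99.8 CPM in FGOs (ratio -3.02). Nlrp5, a maternal-effect gene also called Mater, was at 2438, 4758 and 7321 CPM in GROs and at 321, 883 and 1563 CPM in FGOs (-2.41). Zp2, a zona pellucida protein that binds sperm, was at 6087, 8223 and 11444 CPM in GROs and at 1066, 1894 and 3416 CPM in FGOs (-2.08). None of these 3 overlapped between groups. With all 20 in vivo FGOs pooled, their ratios in vivo were -1.82, -1.12 and -1.05. In vivo falls depend on which FGOs are included, as given below, so no difference between sources is read from these 3 ratios. Nlrp5 has close relatives in its family, so its reads are partly uncertain.

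The zona pellucida and egg surface list gave a median of -0.52 over 12 genes, with only Zp2 past 4-fold (8.33%, against 3.61% of all genes) and 6 genes at least 2-fold lower, as were 15.3% of all genes. Zp1 (-1.77) and Zp3 (-1.46), the other zona proteins, and Astl (-1.88), the protease that cleaves Zp2 after fertilization, were lower in FGOs. Cd9, a membrane protein needed for sperm fusion, had -1.78. Among 9 oocyte-secreted factors and their partners, none passed 4-fold: Gdf9 had -1.18, Bmp15 0.21, Tgfb2 0.36 and Kit, the receptor for granulosa Kit ligand, -0.93. Bmp15 was at 1672, 3235 and 4378 CPM in GROs and at 3222, 3681 and 4971 CPM in FGOs, so that the ranges overlapped.

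Maternal-effect and subcortical complex genes held 2 fallers of 19 (10.5%, against 3.61% of all genes), and 14 were within 2-fold. Padi6, the enzyme-like protein of cytoplasmic lattices, was the most abundant of these 19 transcripts per length in GROs. It went from 10845, 18313 and 24360 CPM in GROs to 1141, 3594 and 5775 CPM in FGOs, a ratio of -2.34 with no overlap. Tle6 of the same complex had -1.79, also with no overlap, while Ooep had -0.41. The median of the list was -0.28.

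Oocyte transcription factors gave a median of -0.69 over 13 genes, of which 1 fell (7.69%, against 3.61% of all genes). At least 2-fold lower were 5 and at least 2-fold higher 2, as were 15.3% and 6.69% of all genes. Sohlh1, a factor of the earliest stages of follicle formation, ranged from 0 CPM in GRO 23 through a median of 11.7 to 76.2 CPM in GRO 18. In FGOs it was at 0, 0.202 and 2.67 CPM, so the ranges overlapped only because some GROs were already low. Figla, which switches on the zona genes, had -1.61 and Nobox, an oocyte homeobox factor, -0.48. Obox5, another homeobox gene, stood higher in every FGO than in every GRO (median 610 to 1721 CPM, ratio 1.51), and Foxo3, which keeps primordial follicles dormant, had 1.45. Obox5 has near-identical family members and its level is uncertain.

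The piRNA pathway, which silences transposons with small RNAs bound to Piwi proteins, had 16 of 25 genes within 2-fold. Of the others 4 fell (16.0%, against 3.61% of all genes) and 1 rose (4.00%, against 1.13%), with a median of -0.46. Piwil2 was at 16.9, 36.2 and 63.7 CPM in GROs and at 0, 0.885 and 3.97 CPM in FGOs. Gpat2, a partner of Piwil2, was at 26.4, 49.9 and 78.4 CPM in GROs and at 0, 2.22 and 5.28 CPM in FGOs (ratio -4.05). In neither gene did any FGO reach the lowest GRO. Tdrd9, a helicase of the pathway, had -2.23, and Ddx4 is given above. Piwil1 went the other way, from 0.286, 6.14 and 20.6 CPM to 19.5, 47.7 and 76.9 CPM, a ratio of 2.76 with ranges that only touched.

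Of 29 genes of mRNA storage, translation and decay none rose 4-fold and the median was 0.13. At least 2-fold higher were 5 of them, as were 6.69% of all genes, and 1 fell (3.45%), near the 3.61% of all genes. Cnot7, a deadenylase that shortens poly(A) tails, was at 300, 377 and 533 CPM in GROs and at 1146, 1399 and 1970 CPM in FGOs (1.85). Cpeb4, a regulator of cytoplasmic polyadenylation, had 1.81, Dcp2, the decapping enzyme, 1.73, and Dcp1a, its cofactor, 1.39. In all 4 genes every FGO was above every GRO, as in 6 of the 29 genes of the list and 2.39% of all genes. The single faller was Pabpc1, the somatic poly(A)-binding protein, at 17.8, 24.0 and 33.7 CPM in GROs and at a median of 3.58 CPM in FGOs, with no overlap (-2.33).

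In the meiotic lists the members past 4-fold were single genes. Of 31 genes of meiotic arrest and resumption 1 fell (3.23%), near the 3.61% of all genes. It was Wee1, the kinase that inhibits the maturation-promoting kinase Cdk1 (-2.31, from a median of 47 to 8.19 CPM). Ccnb3, a cyclin of meiosis, had 1.37. None of 25 spindle checkpoint and Aurora kinase genes passed 4-fold, the highest being Bub1b at 1.42. Among 29 meiotic prophase genes the median was -0.51, and Mei4, needed to make meiotic DNA breaks, rose from a median of 5.19 to 51.9 CPM (2.86). This 1 riser makes 3.45% of the list, against 1.13% of all genes.

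Of 41 histone lysine methyltransferases and demethylases, 3 fell (7.32%, against 3.61% of all genes) and none rose: Ehmt2, which methylates H3K9 (-2.94), Kdm5a, an H3K4 demethylase (-2.18), and Kdm1b, the H3K4 demethylase needed for maternal imprints (-2.14). Kdm1b was at 443, 694 and 966 CPM in GROs and at 81.9, 153 and 264 CPM in FGOs, with no overlap. Among the DNA methyltransferases Dnmt3a had -0.09, Dnmt3l, its cofactor in imprinting, 0.84, and Dnmt1 -0.91. Of 32 Polycomb genes only Cbx8 fell (-2.49; 3.12%), and Ezh2 had 0.50 and Eed 0.89. Of 28 imprinted genes only Impact fell (-2.10, or -1.96 by medians), or 3.57%, and both shares lie near that of all genes.

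Over 28 genes of glycolysis and lactate the median ratio was -0.77, against -0.11 for all genes. There were 2 fallers (7.14%, against 3.61% of all genes), 8 genes were at least 2-fold lower, as were 15.3% of all genes, and 1 was at least 2-fold higher. Ldhc, the germ cell lactate dehydrogenase, was at 166, 242 and 289 CPM in GROs and at 4.00, 13.9 and 30.7 CPM in FGOs (-4.02). Ldha, the common form, had -2.36, Pfkl, the liver phosphofructokinase, -1.79, and Gapdh -1.81. The lactate and pyruvate transporter Slc16a1 was higher in FGOs (1.39). Of 67 nuclear subunits of oxidative phosphorylation 63 were within 2-fold, as were 78.0% of all genes. The 1 faller (1.49%, against 3.61%) was Uqcrc1 (-2.76, from a median of 184 to 25.6 CPM).

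Cholesterol biosynthesis gave a median of 0.29 over 27 genes, of which 1 rose and 1 fell (3.70% each, against 1.13% and 3.61% of all genes). Stard4, a cholesterol carrier, was at 8.50, 12.4 and 18.8 CPM in GROs and at 39.3, 75.4 and 115 CPM in FGOs, with no overlap and a ratio of 2.47. Msmo1, an enzyme of the pathway, had 1.60, and Pmvk, an early enzyme, fell (-2.07). Of 211 solute carriers 10 fell (4.74%) and 2 rose (0.948%), near the 3.61% and 1.13% of all genes, and 152 were within 2-fold. The risers were Slc27a6, a fatty acid transporter (3.45), and Slc6a15, a neutral amino acid transporter (2.90). Slc30a6, a zinc exporter (-2.75), and Slc27a4 (-2.93) fell along with Slc39a1. Of 63 cytosolic ribosomal proteins 60 were within 2-fold, as were 78.0% of all genes, and the 1 faller (1.59%, against 3.61%) was Rpl10l, a retrogene copy (-2.32).

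In the lists of Notch, DNA damage and death, proteasome and motor genes, 2.94 to 4.17% of the measured members fell, near the 3.61% of all genes. Hes5, a target of Notch signaling, went from a median of 17.4 to 1.24 CPM (-3.17) among 24 Notch genes with a median of -0.59. Mcl1, which protects cells from death, fell (-2.32) among 24 DNA damage and death genes. Psmd13 fell (-2.14) among 34 proteasome subunits. Kifap3, which links kinesin-2 to cargo (-3.0), and Dync1h1, the dynein heavy chain (-2.48), were the 2 fallers among 52 motor genes.

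**Figure D3:**
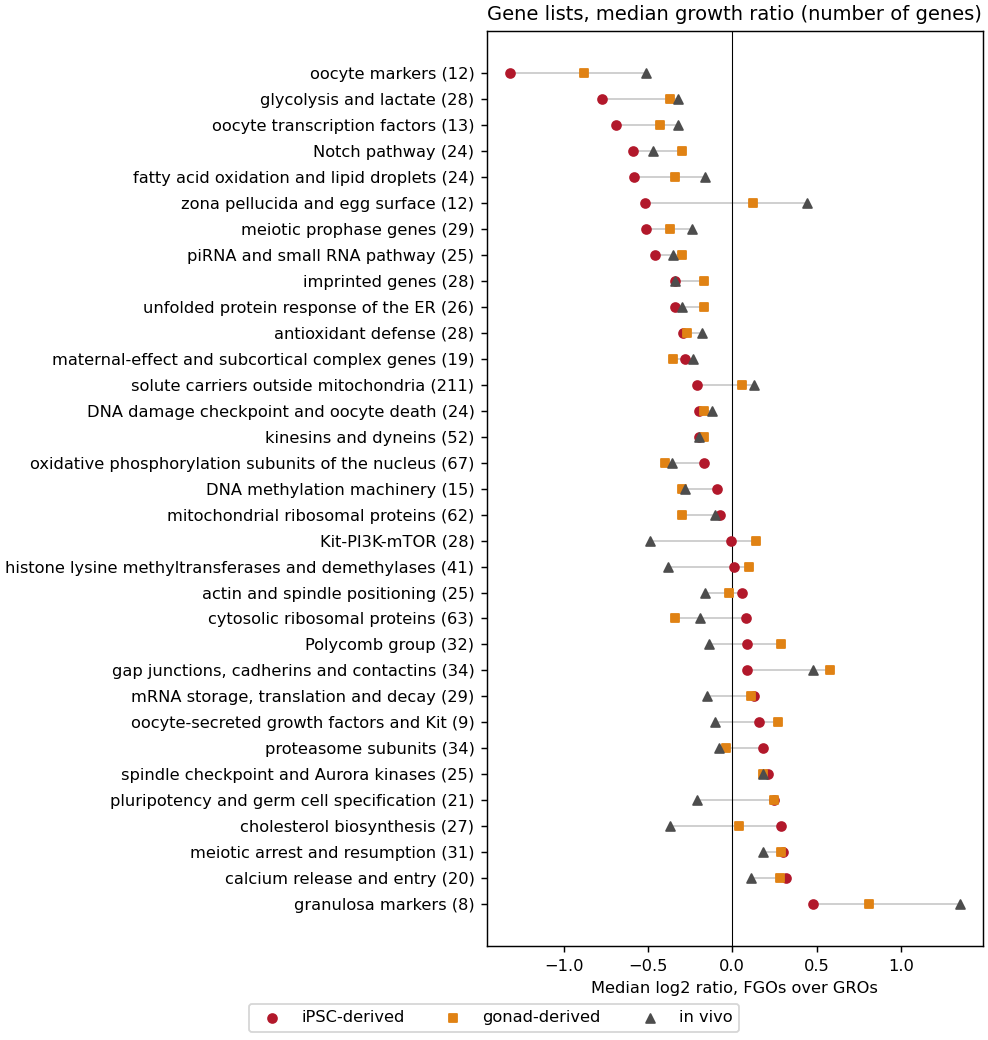
Median log2 ratio of FGOs over GROs for each gene list with at least 8 genes compared (number of genes in brackets), in iPSC-derived (red circles), gonad-derived (orange squares) and in vivo oocytes (grey triangles). Oocyte markers and glycolysis lie lowest in iPSC-derived oocytes. The signs of the medians of granulosa markers, DNA methylation machinery, Kit-PI3K-mTOR, histone enzymes and mitochondrial ribosomal proteins depend on the processing.

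To place each iPSC-derived oocyte along growth, genes were chosen on in vivo oocytes, which share no library with the comparison. In vivo, 404 genes rose and 256 fell. The 404 took 0.191, 0.477 and 0.891% of reads in the lowest, median and highest iPSC-derived GRO and 0.929, 1.19 and 1.32% in iPSC-derived FGOs. No FGO reached down to a GRO, but GRO 6 came close to FGO 18. The 256 took 0.353, 0.463 and 0.745% of reads in GROs and 0.0745, 0.0855 and 0.123% in FGOs, again with no overlap. In vivo, where the genes were chosen, the 404 took medians of 0.223% in GROs and 1.5% in FGOs, given only as description. Chosen on the 15 in vivo FGOs that the study used, 455 risers took 0.220 to 1.04% of reads in iPSC-derived GROs and 1.18 to 1.57% in FGOs, and 580 fallers took 1.09 to 1.80% and 0.283 to 0.450%. Chosen without in vivo FGO 7, the sets held 416 and 332 genes, and the groups did not overlap in either.

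GROs differed among themselves along this axis. GRO 4 had the lowest share of the in vivo risers, and GRO 6 and GRO 19 (0.768%) had the highest. GRO 6 also had the lowest share of fallers but for GRO 15. Over the 23 GROs the shares of the 2 gene sets were correlated with a Pearson r of -0.66 and a Spearman rho of -0.74, a description of cells whose shares come from the same libraries. Over the 24 FGOs the values were -0.11 and 0.12. The rho of the riser share with read depth was -0.11 in GROs. Summed granulosa markers were lowest in GRO 4 (20.3 CPM) and highest in GRO 19 (104 CPM), with 69.7 CPM in GRO 6. GRO 14 and GRO 16, also low in riser share (0.319 and 0.325%), held 29.0 and 24.4 CPM. Summed theca and stroma markers were highest in GRO 6 (7.48 CPM). The part of these markers in the spread of GROs was not tested. The spread of single genes was similar in both stages, with a median SD of log2(CPM + 1) of 0.359 in GROs and 0.371 in FGOs.

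**Figure D4:**
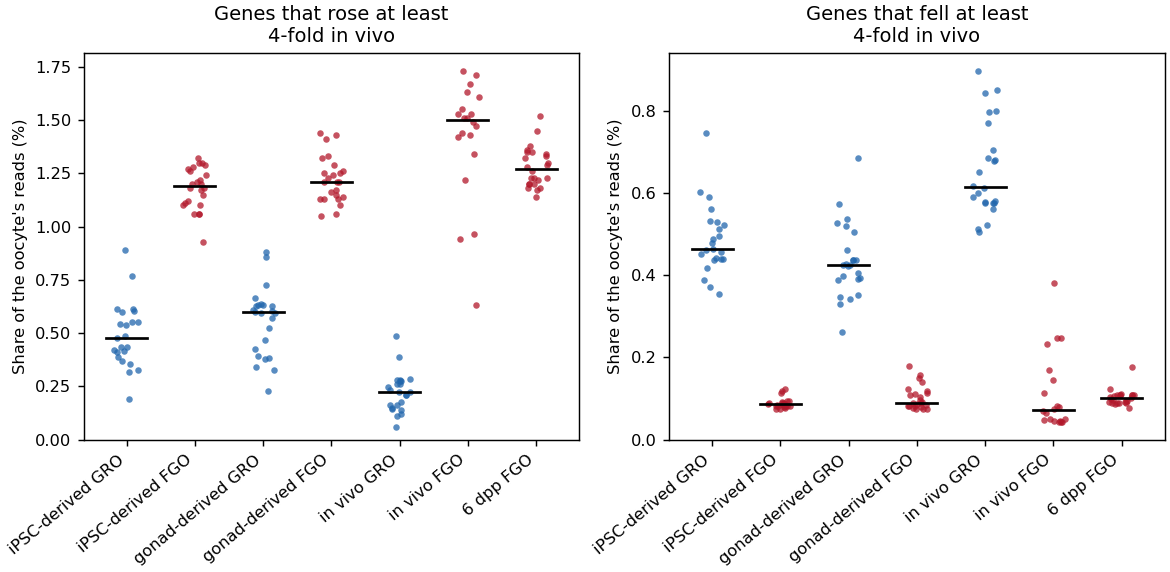
Share of each oocyte's reads (%) from the 404 genes that rose at least 4-fold in vivo (left) and the 256 that fell (right), with 1 point per oocyte and group medians as bars. GROs are blue and FGOs red. The 24 iPSC-derived FGOs lie between 0.929 and 1.32% on the left, above all 23 iPSC-derived GROs, and the in vivo groups are those the genes were chosen on.

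Compared gene by gene, the ratios of iPSC-derived growth went with those of in vivo growth with r = 0.689 across 13115 genes (0.697 without in vivo FGO 7 and 0.719 with the 15 in vivo FGOs the study used), and with those of gonad-derived growth with r = 0.861. Genes are not independent replicates, and the 3 comparisons share no oocyte. Of the 397 in vivo risers that entered, 91 rose in iPSC-derived oocytes (22.9%, against 1.13% of all genes). At least 2-fold higher were 266 (67.0%, against 6.69%), and 26 had the opposite sign. The 397 genes had a median ratio of 1.39 in iPSC-derived and 1.42 in gonad-derived growth. Their median level was 2.58 CPM in iPSC-derived GROs and 7.76 CPM in FGOs, 3.09 and 9.64 CPM in gonad-derived oocytes, and 1.45 and 13.4 CPM in vivo. As the genes were chosen for being low in in vivo GROs and high in in vivo FGOs, no difference between sources is read from these levels. Of the 253 in vivo fallers that entered, 139 fell in iPSC-derived oocytes (54.9%, against 3.61% of all genes). At least 2-fold lower were 224 (88.5%, against 15.3%), and the median ratio was -2.13. Chosen on the 15 in vivo FGOs, 299 of 448 risers were at least 2-fold higher (66.7%) and 503 of 575 fallers at least 2-fold lower (87.5%).

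The balance of risers and fallers was set beside that of the other sources over the same 13115 genes. In gonad-derived oocytes 115 rose (0.877%) and 244 fell (1.86%). In vivo, 397 genes rose (3.03%) and 254 fell (1.94%) when all 20 FGOs were pooled. The 254 are counted over all 13115 genes, whereas the 253 above are those of the 256 chosen on in vivo oocytes. The totals of 576 and 575 with the 15 in vivo FGOs differ in the same way. The in vivo count of fallers turned on a few oocytes that kept high levels of these transcripts. In vivo FGO 7 had the highest share of faller reads (0.382%) and the lowest share of riser reads (0.633%) of the in vivo FGOs. Without it 409 genes rose and 329 fell in vivo, and with the 15 in vivo FGOs that the study used 448 rose and 576 fell. By medians over oocytes 477 rose and 421 fell in vivo, against 164 and 505 in iPSC-derived oocytes. Whether fallers outnumber risers in vivo thus depends on which FGOs are included. Risers were more numerous in vivo than in iPSC-derived oocytes in each of these settings. The study reports, however, that its iPSC-derived and gonad-derived GROs were larger than its in vivo GROs. The comparisons may therefore start at different points of growth, and a count of risers is not a measure of culture alone. The part of oocyte size in these counts was not tested.

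The genes shared between iPSC-derived and in vivo growth were 91 risers, 61.5% of the 148 and 22.9% of the 397, and 139 fallers, 29.3% of the 474 and 54.7% of the 254. With the 15 in vivo FGOs the shared fallers were 280, or 59.1% of the 474 and 48.6% of the 576, and the shared risers 102, or 68.9% and 22.8%. With gonad-derived growth the shared risers were 63, 42.6% of the 148 and 54.8% of the 115, and the shared fallers 214, 45.1% of the 474 and 87.7% of the 244. The 474 fallers of iPSC-derived growth had a median ratio of -2.42 there, of -1.92 in gonad-derived oocytes and of -1.69 in vivo, which became -2.21 with the 15 FGOs. The 148 risers had medians of 2.42, 1.83 and 2.34. Since the genes were chosen on iPSC-derived oocytes, their ratio there is the more extreme by that choice, and no order of the sources is read from it.

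**Figure D5:**
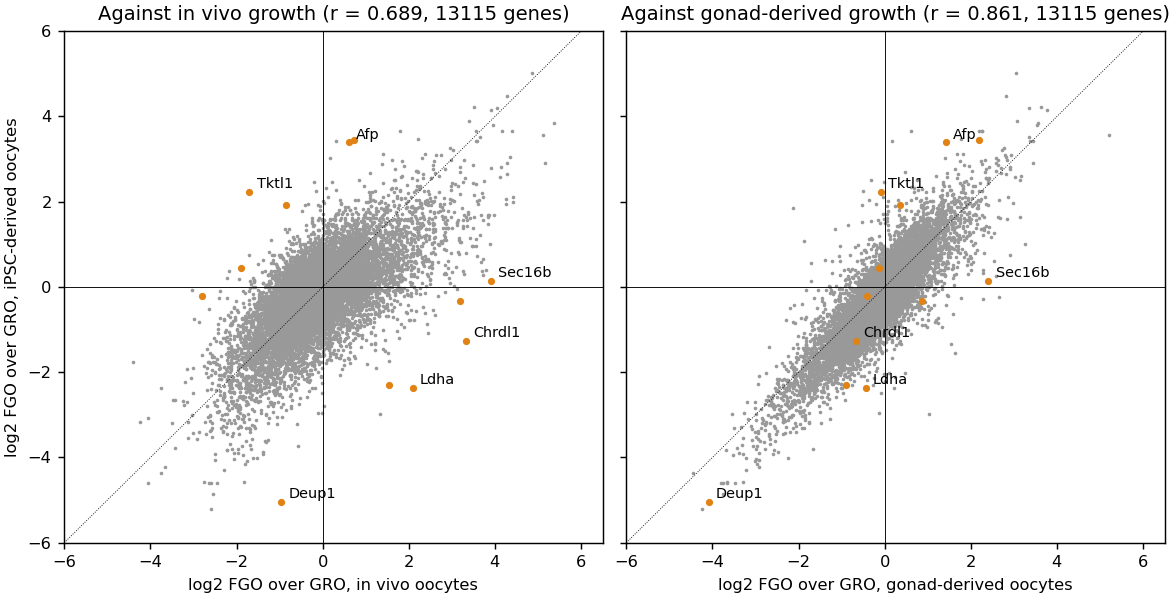
log2 ratio of FGOs over GROs in iPSC-derived oocytes (y axis) against in vivo (left) and gonad-derived oocytes (right) for 13115 genes, with equality as a dotted line. Orange points are the genes named for the largest difference from in vivo growth. Ldha, Chrdl1 and Sec16b lie to the right of the cloud against in vivo growth.

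Of 13798 genes detected in either pair, 189 had a growth ratio at least 4-fold lower in iPSC-derived than in in vivo oocytes (1.37%) and 37 had one at least 4-fold higher (0.268%). Without in vivo FGO 7 the counts were 189 and 38, and with the 15 in vivo FGOs 165 and 57. Against gonad-derived growth 24 genes were lower (0.183%) and 19 higher (0.145%) of 13115. Which of the 2 stages differed varied from gene to gene.

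Ldha was at 18.9, 126 and 567 CPM in the lowest, median and highest iPSC-derived GRO and at 0.260, 23.4 and 111 CPM in iPSC-derived FGOs. In vivo it was at 0, 0.783 and 5.57 CPM in GROs and at 0.455, 3.49 and 40.5 CPM in FGOs. The highest value was that of in vivo FGO 16, and the next was 12.8 CPM. Summed granulosa markers stood at 356 CPM in in vivo FGO 16 and 413 CPM in in vivo FGO 19, against a median of 120 CPM. The part of these markers was not tested. The ratio was thus -2.36 in iPSC-derived and 2.09 in vivo oocytes, and every iPSC-derived GRO lay above every in vivo GRO. The median of gonad-derived GROs lay between, with a range of 0.146, 2.38 and 176 CPM that overlapped both. Chrdl1, an antagonist of BMP, had ratios of -1.26 and 3.32, from low and patchy levels (median 0.755 CPM in iPSC-derived GROs and 0.556 CPM in in vivo FGOs). Its in vivo ratio was 1.08 by medians, since a minority of in vivo FGOs held up to 37.0 CPM.

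Sec16b and Chst4 rose in vivo and stayed within 2-fold here. Sec16b, which organizes ER exit sites, was at 0, 3.12 and 15.2 CPM in iPSC-derived GROs and at 0.703, 3.65 and 7.86 CPM in FGOs, a ratio of 0.15. In vivo it went from a median of 1.57 to 39.5 CPM (3.90), and in gonad-derived oocytes from 3.89 to 28.8 CPM (2.41). All in vivo and gonad-derived FGOs were above all iPSC-derived FGOs. Chst4, a sulfotransferase, had -0.34 against 3.19 in vivo. Gykl1, a glycerol kinase-like gene, had -2.30 against 1.54. Deup1 fell here and in gonad-derived oocytes (-4.09), with -0.96 in vivo, where FGOs ranged from 0 to 16.4 CPM. With the 15 in vivo FGOs its in vivo ratio was -1.70, and by medians it was -2.05, past 4-fold in vivo too.

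Among the genes with a higher ratio in iPSC-derived growth, Afp had similar low GRO levels in all 3 sources. Slc27a6 was at 0.134 pooled CPM in iPSC-derived GROs, 0.130 CPM in in vivo GROs and 0.0318 CPM in gonad-derived GROs. Afp, the fetal serum protein alpha-fetoprotein, was at 0.562, 1.21 and 2.25 CPM in iPSC-derived GROs and at 4.24, 16.8 and 45.3 CPM in FGOs (ratio 3.39). In vivo FGOs held 0.289, 1.88 and 5.15 CPM (0.60) and gonad-derived FGOs 1.58, 3.55 and 10.1 CPM (1.42). Slc27a6 was at a median of 0 CPM in iPSC-derived GROs and 5.34 CPM in FGOs (3.45), against 0.0663 and 0.451 CPM in vivo (0.73). Tktl1, a transketolase-like gene, had 2.23 against -1.70, but 1 cell, FGO 13, held 75.5 CPM while the median FGO held 2.17 CPM. Its ratio was 1.71 without that oocyte and 0.48 by medians over oocytes, so that it rested on a few FGOs. Ddit4l, an inhibitor of mTOR signaling, had 1.92 against -0.85, with 168 and 85.5 CPM in the highest FGOs and a median of 11.4 CPM. By medians its ratio was 1.17, and with the 15 in vivo FGOs its in vivo ratio was -1.55.

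For Htr5b and Gli3 the larger change lay in the in vivo pair. Htr5b, a serotonin receptor gene, was at medians of 3.46 and 2.88 CPM in iPSC-derived GROs and FGOs (-0.22), while in vivo GROs held 45.4 CPM and in vivo FGOs 5.72 CPM (-2.81). Gli3, a transcription factor of hedgehog signaling, was at medians of 45.1 and 59.4 CPM in iPSC-derived oocytes (0.44) and at 40.9 and 11.7 CPM in vivo (-1.90).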

How the data were processed

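Single oocytes were profiled by Smart-seq2 after removal of follicular cells and zona pellucida. The deposited table holds unnormalized counts of reads for each gene, with an exonic length. Per the study's methods, reads were aligned with STAR to GRCm38/mm10, reads with several placements went to a random one, and QuasR counted uniquely mapped exonic reads of 1 random transcript per gene (QuasR version not given in the sources used here). All 163 columns were mapped by title and 0 columns were left unmapped. Of 21950 identifiers, 21907 matched a symbol of RefSeq, GRCm38.p6.

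Counts of a group were summed and scaled to CPM, with exact Poisson 95% intervals that cover counting error only, since amplified reads carry no molecular identifiers. In a group, 3 reads correspond to 0.0182 CPM (iPSC-derived GROs) and 0.0181 CPM (FGOs). Within a stage, no libraries were identical (0 of 529 pairs). The pooled ratio was tested on simulated data. Python 3.11.15, numpy 2.4.6, pandas 2.3.3, scipy 1.17.1 and edgeR 4.0.16 (coefficients and TMM factors only) were used.

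Named risers and fallers are the 12 of largest size in each direction, among genes reaching 5 pooled CPM in 1 of the stages and holding 4-fold both by medians over oocytes and with any oocyte left out. The 6 genes per direction of largest difference from the in vivo ratio were named under like conditions, and each list gave up to 4 members of largest ratio plus central members. Members and the 35 gene lists were chosen with earlier results of these data known, and 2 further lists after values were seen. Alternatives were other added values (0.1 and 2 CPM), TMM and median-of-ratios scaling, no filter or CPM above 1 in at least 12 oocytes, means or medians over oocytes, edgeR coefficients, the 22 GROs and 23 FGOs kept by the study, and leaving out each oocyte. Leaving out in vivo FGO 7, the in vivo FGOs set aside by the study, or taking in vivo medians were added after the data were seen.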

Additional observations from a re-analysis of the deposited data

How the results depend on the processing

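With each oocyte left out in turn, 137 to 169 genes rose and 463 to 482 fell, the median ratio ran from -0.12 to -0.10, and the genes with no overlap numbered 313 to 353 (higher) and 737 to 788 (lower). The latter counts, 313 and 737, were 467 and 594 with TMM scaling. The counts of risers and fallers, 148 and 474, were 295 and 781 with 0.1 CPM added, 59 and 204 with 2 CPM added, and 401 and 827 with edgeR coefficients. In each of these settings fallers outnumbered risers. The median ratio over all genes, -0.11, was -0.02 with TMM scaling, -0.04 with median-of-ratios scaling, -0.03 without a filter and -0.03 with edgeR coefficients. The rank correlation with in vivo growth was 0.640 where Pearson's r was 0.689. The FGO median minus the GRO median of the share of reads, 0.714 percentage points for the 404 in vivo risers, was 2.71 for the 1373 genes at least 2-fold higher in vivo and 0.215 for the 115 genes that rose in gonad-derived oocytes, and in both the groups did not overlap. Of the in vivo counts, the 254 fallers became 329 without in vivo FGO 7, 576 with the 15 in vivo FGOs used by the study and 421 by medians over oocytes, alternatives chosen after seeing the data. None of the 35 named genes changed sign. The named risers and fallers were chosen for holding 4-fold by medians and with any oocyte left out. In those settings their sign was therefore fixed by the choice. Of 35 list medians 5 changed sign in at least 1 setting: granulosa markers, DNA methylation machinery, Kit-PI3K-mTOR, histone lysine enzymes and mitochondrial ribosomal proteins. No paired analysis was possible because oocytes of the 2 stages share a number but no stated culture. The causes of these shifts were not tested. With about 7 M reads per oocyte, genes under 1 CPM in a single oocyte rest on few reads.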
